A study of Caenorhabditis elegans with 9 samples.

Results

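The translation initiation and elongation factors of Caenorhabditis elegans were followed through depletion of RPOA-2, a subunit of RNA polymerase I. The members are the genes whose symbol begins with eif or eef and a number, the numbered ife genes, and ifg-1, iff-1 and iff-2, with eif-6 left out. This rule found 37 of the 13246 genes listed in at least 1 library: 6 elongation factor genes and 31 genes for initiation factors and eIF5A. It reads only names, so egl-45, which encodes an eIF3 subunit, falls outside it. The rule itself uses no measured value, though it was chosen with earlier results of these data known.

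Initiation factors bring the initiator tRNA, the small ribosomal subunit and the mRNA together and find the start codon. eIF2 carries the initiator tRNA with GTP, eIF2B recharges eIF2, eIF3 is the scaffold on the small subunit, and eIF4E with eIF4G ties the mRNA cap to it. Elongation factors then work at every codon: eEF1A delivers aminoacyl-tRNA, the eEF1B complex recharges eEF1A, and eEF2 moves the ribosome along. RNA polymerase I makes the precursor of the large ribosomal RNAs, so these factors act on the ribosomes that its product builds.

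All 4 groups carried degron::GFP::rpoa-2, in which a degron lets the plant protein TIR1 mark the fusion protein for destruction when the auxin IAA is given. The controls had no TIR1 and no IAA and were taken at 18 h (n = 2) or 24 h (n = 2). The hypodermal depletion (n = 3) added col-10p::TIR1, driven by the promoter of a cuticle collagen gene, and 1 mM IAA for 24 h. The global depletion (n = 2) added eft-3p::TIR1 and 1 mM IAA for 24 h; eft-3 is an older name of eef-1A.1, itself a member, so this transgene uses a member's promoter. Effects of TIR1 or IAA cannot be told apart from those of depletion. Synchronized eggs were grown at 16 °C and the source is given as whole worm, with embryo in the titles and no stage at harvest. In whole-worm RNA, fewer cells of a type and less RNA per cell cannot be told apart. No source says whether the libraries are separate cultures; the p-values reflect the spread between these libraries alone, which may be technical.

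The shallowest libraries were the 18 h controls, and totals spanned 12.8-fold, from 166455 to 2134185 counts. The 24 h controls, at 324321 and 506659 counts, were also shallower than every depleted library, the lowest of which had 781648. Depth therefore went with depletion at 24 h as well. The table lists no count below 3, and such counts are called unlisted here. Between 30 and 37 members were listed per library, and 29 were listed in all 9. Of the 8 early embryonic markers, end-1, end-3, nos-2 and pes-10 were unlisted in every library and the other 4 were listed in at least 1, while all 6 hypodermal, all 7 intestinal and all 5 body wall muscle markers were listed in every group. The rpoa-2 mRNA was not lower in the depleted libraries: its level was 187 and 272 CPM (counts per 1e6 counts of the library) at 18 h, 156 and 260 in the 24 h controls, 290, 279 and 238 with hypodermal and 355 and 369 with global depletion. Degron depletion acts on the protein, so this mRNA does not measure it.

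Levels of the factors spanned a wide range. Per kb of coding sequence, with unlisted counts as 0, the mean level over the 9 libraries was 6809 CPM per kb for eef-1A.1, 3818 for eef-2, 3058 for eef-1A.2 and 2012 for eef-1G. The eIF5A gene iff-2 followed at 1098 and eef-1B.1 at 989.8. At the other end stood eif-2Balpha at 10.3 CPM per kb, eif-2D at 8.96, and the cap-binding genes ife-4 at 6.78 and ife-5 at 5.18. The genes that work at every codon and iff-2 were therefore the most abundant members, and the eIF2B subunits were among the least.

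**Figure D1:**
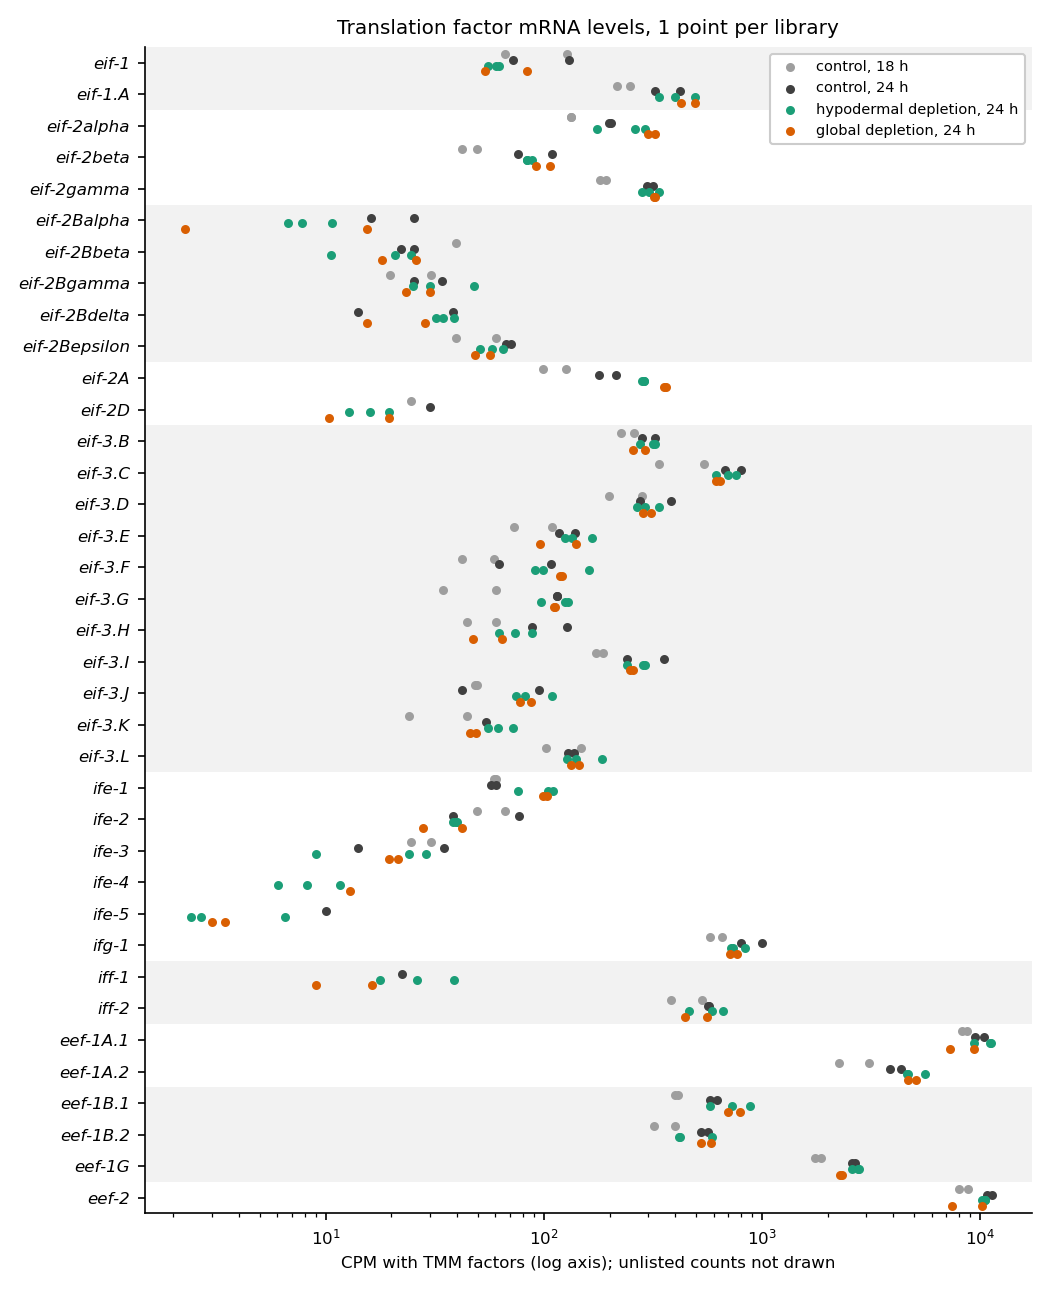
Level of each of the 37 factors in CPM with TMM factors (log axis), 1 point per library, coloured by group; unlisted counts are not drawn. The elongation factors eef-1A.1 and eef-2 sit near 1e4 in every library and eIF2B subunits mostly below 75.

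The members' summed level was lower at 18 h than in any 24 h library. It came to 25209 and 26391 CPM at 18 h, 35405 and 33220 in the 24 h controls, 35093, 34058 and 36685 with hypodermal and 33379 and 28486 with global depletion. The 24 h controls were thus 1.33-fold above the 18 h controls, hypodermal depletion was at 1.03 times and global depletion at 0.90 times the 24 h controls, with global replicate 2 below every other 24 h library. The sum is mostly eEF1A and eEF2: eef-2, eef-1A.1 and eef-1A.2 made up 68.1% to 76.4% of it. The initiation factors and iff genes alone came to 3826 and 3557 CPM at 18 h and to 5172 to 5664 in all 24 h libraries. Their group means differed by 0.982-fold between global depletion and the 24 h controls and by 1.00-fold between hypodermal depletion and those controls.

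**Figure D2:**
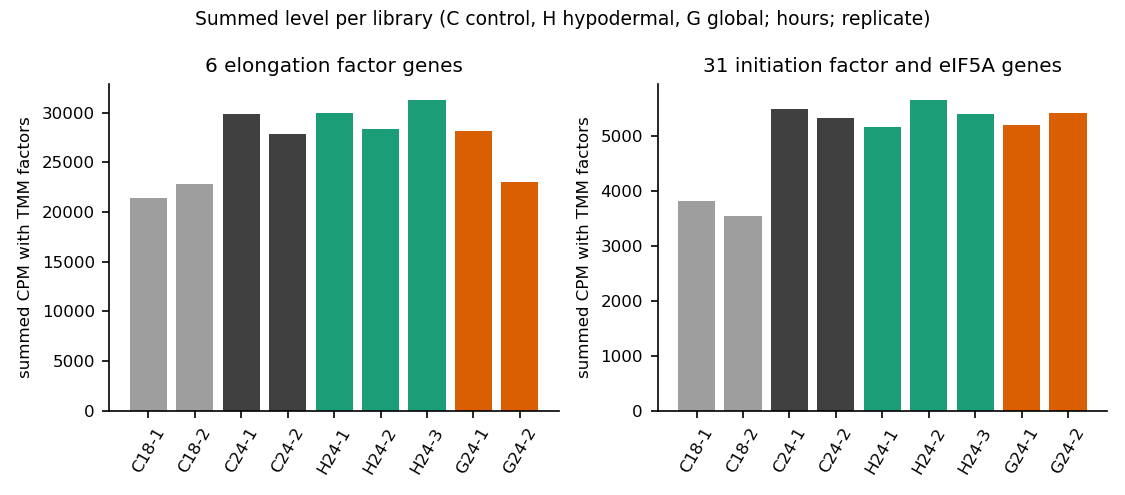
Summed level of the factors in CPM with TMM factors, 1 bar per library, for elongation factors and for initiation factors with eIF5A. Both 18 h control bars are the lowest of the initiation panel, at 3826 and 3557, and global replicate 2 is the lowest 24 h bar of the elongation panel.

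Of the 37 members, 35 passed a filter on low counts (a count of at least 10 in enough libraries) and were tested with edgeR's quasi-likelihood test among 8026 genes. A call is a Benjamini-Hochberg adjusted p below 0.05. Counts at an unadjusted p below 0.05 are given for the members only, with no share of all genes to set them against. The cap-binding genes ife-4 and ife-5 did not pass and are given as values only.

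Global depletion against the 24 h controls asks what loss of RPOA-2 in most tissues did at matched time. Of the 35 tested factors, 1 rose, none fell, and 34 did not pass the test. Of all genes tested, 8.45% were called, 3.44% higher and 5.01% lower. The member that rose was eif-2A, which encodes a factor able to bring initiator tRNA to the ribosome without eIF2. The members' median log2 difference was -0.14, against 0.01 over all genes. Of the estimates, 14 were above 0 and 21 below, where 50.5% of all genes were above 0. By another count, every global library lay above every 24 h control library for 8 members, where 24.6% of all genes did so, and below for 10, where 24.7% did. At an unadjusted p below 0.05, 4 members passed: eif-2alpha, eif-2A, eif-3.H and ife-1. With total count as the only scaling, the members' median was -0.04 and that of all genes 0.11. With no filter on low counts they were 0.01 and -0.01, so the direction of the members' median against all genes turned there.

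eif-2A lies on chromosome II from 10416786 to 10419237 on the plus strand (WBcel235). It was measured at 98.6 and 127 CPM at 18 h, from 20 and 21 counts, and 213 and 179 in the 24 h controls. It was 286, 289 and 283 with hypodermal and 363 and 355 with global depletion. The 4 groups did not overlap, and global depletion was the highest. Global depletion exceeded the 24 h controls by 0.88 on the log2 scale (SE 0.24, 95% interval 0.40 to 1.37, edgeR adjusted p = 0.0121), higher in both global libraries. The call was lost without 24 h control replicate 2 (adjusted p = 0.164), without global replicate 1 (adjusted p = 0.118) or without global replicate 2 (adjusted p = 0.0880), with log2 differences of 0.74, 0.84 and 0.91. It was kept under the other 17 of 20 alternatives. Hypodermal depletion exceeded the 24 h controls by 0.55 (SE 0.23, edgeR adjusted p = 0.168), which did not pass. The difference between the depletions, hypodermal minus global, was -0.33 (SE 0.20, edgeR adjusted p = 0.521), so the rise in global depletion was not shown to differ from the value in hypodermal depletion.

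**Figure D3:**
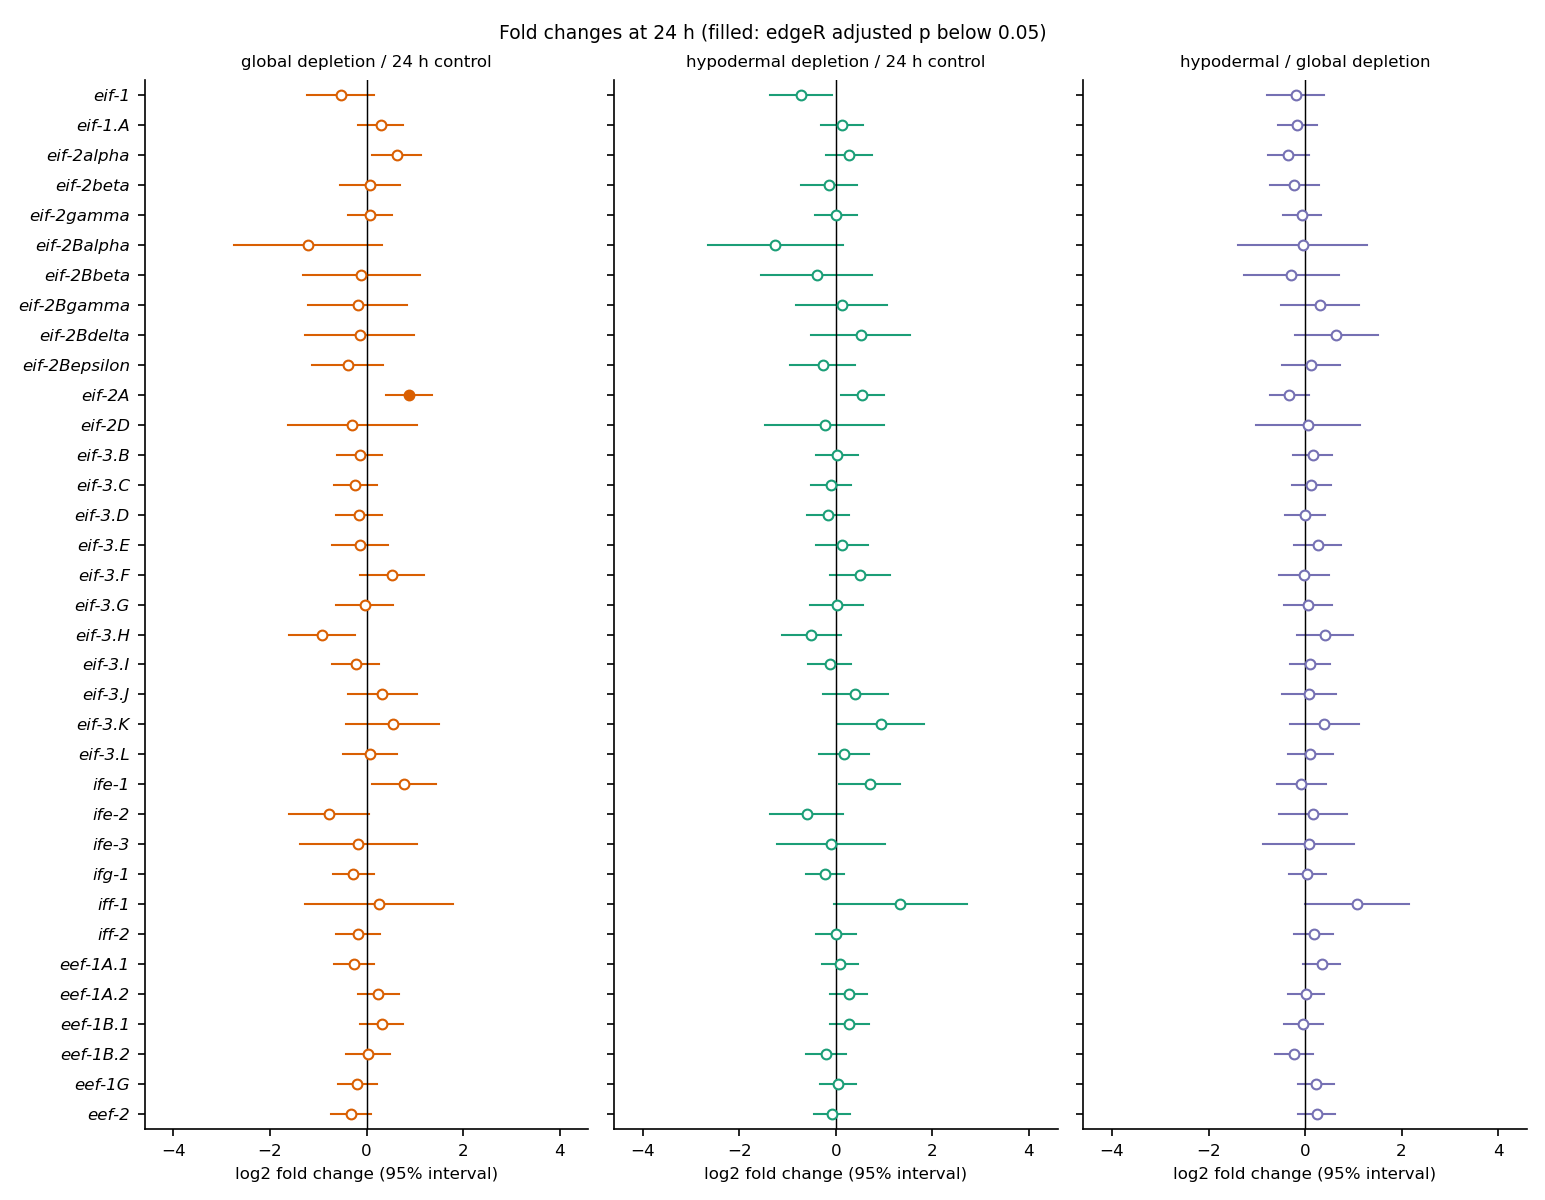
Fitted log2 fold changes of the 35 tested members in the 3 comparisons at 24 h, with 95% intervals; filled points have an edgeR adjusted p below 0.05. The filled point is eif-2A in global depletion at 0.88, and most others lie close to 0.

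Markers of other tissues and stages moved in the same comparison. Of the 7 intestinal markers, 3 fell in global depletion against the 24 h controls, and their summed level was 9154 to 10237 CPM against 11875 to 16017. Of the 5 muscle markers, 1 fell. Of the 6 hypodermal markers, only dpy-7 was called, and it fell in both depletions against these controls. The hypodermal list medians were 0.06 in global and 0.10 in hypodermal depletion. The summed hypodermal levels were 420.0 to 468.0 CPM in global depletion, 436.1 to 531.6 in hypodermal depletion and 439.1 to 461.5 in these controls. Of the 8 early embryonic markers, 1 was tested, skn-1. It rose in both depletions, by 0.95 in global (edgeR adjusted p = 0.00943) and 0.91 in hypodermal depletion (edgeR adjusted p = 0.0128). The early embryonic markers summed to 227 to 242 CPM at 18 h, 121 to 187 in the 24 h controls, 281 to 308 in hypodermal depletion and 293 to 312 in global depletion. These sums include skn-1 and rest on 2 listed markers in each control group and 4 in each depletion. The part of tissue composition or stage in the factors' values was not tested.

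The eIF2 and eIF2B genes, whose proteins load and recharge the initiator tRNA carrier, showed no call at 24 h. eif-2alpha, the subunit that stress kinases phosphorylate, was at 204 and 199 CPM in the 24 h controls, 262, 291 and 175 with hypodermal and 299 and 323 with global depletion. The global libraries lay above the controls, and hypodermal replicate 3 lay below them. The log2 difference was 0.63 in global depletion (SE 0.25, edgeR adjusted p = 0.125). eif-2beta and eif-2gamma differed by 0.07 each in the same comparison. The eIF2 genes together came to 1.22 times the 24 h controls in global depletion and 1.06 times in hypodermal depletion.

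All 5 eIF2B estimates were below 0 in global depletion, from -1.21 to -0.11, at edgeR adjusted p of 0.385 to 0.946, and 3 of 5 in hypodermal depletion. eif-2Balpha, a regulatory subunit, gave the lowest estimate of any member in both. It was unlisted in both 18 h controls and stood at 25.5 and 16.1 CPM in the 24 h controls, 6.74, 10.7 and 7.77 with hypodermal and 2.26 and 15.5 with global depletion. The depleted libraries all lay below the 24 h controls, on 18 counts or fewer in each of them. The estimates were -1.21 (SE 0.76, edgeR adjusted p = 0.385) and -1.26 (SE 0.70, edgeR adjusted p = 0.353), so a change of this size could not be told from none at this depth.

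Among the 11 eIF3 genes of the scaffold complex, none was called at 24 h. Their estimates ran from -0.92 for eif-3.H to 0.54 for eif-3.K in global depletion, with a median of -0.14, and from -0.51 to 0.94 for the same genes in hypodermal depletion, with a median of 0.02. eif-3.H was at 44.4 and 60.5 CPM at 18 h, 127 and 88.6 in the 24 h controls, 62.1, 88.4 and 73.9 with hypodermal and 47.5 and 64.5 with global depletion. All 5 depleted libraries were below both controls, by -0.92 in global depletion (SE 0.34, edgeR adjusted p = 0.0797). That estimate became a call only without 18 h control replicate 1, at -0.98 (edgeR adjusted p = 0.0453). eif-3.K was unlisted in 24 h control replicate 1 and at 54.4 CPM in replicate 2, against 44.4 and 24.2 at 18 h, 61.6, 55.6 and 72.6 with hypodermal and 46.0 and 49.1 with global depletion. Its hypodermal estimate of 0.94 (SE 0.44, edgeR adjusted p = 0.246) became a call without 24 h control replicate 2, which leaves the unlisted library as the only 24 h control, as did its global estimate of 0.54 (edgeR adjusted p = 0.0100 there).

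The cap-binding eIF4E genes diverged in their values, with no call. ife-1, known for its role in sperm formation, was at 59.2 and 60.5 CPM in the 18 h controls and 57.3 and 60.4 in the 24 h controls. It stood at 76.5, 110 and 105 with hypodermal and 99.5 and 103 with global depletion. Every depleted library was above every control, by 0.78 in global depletion (SE 0.33, edgeR adjusted p = 0.155) and 0.70 in hypodermal depletion (SE 0.31, edgeR adjusted p = 0.219) against the 24 h controls. The coding sequence of ife-1 shares 55 bases, 7.94% of its length, with an exon of dro-1 on the same strand, so reads there are uncertain.

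ife-2, a broadly expressed somatic form, was at 49.3 and 66.5 CPM at 18 h and 38.2 and 76.5 in the 24 h controls. It stood at 39.5, 38.2 and 40.2 with hypodermal and 27.9 and 42.2 with global depletion. Between the 24 h controls lay 3 of the 5 depleted libraries, and the log2 difference in global depletion was -0.77 (SE 0.41, edgeR adjusted p = 0.286). ife-3 was at 24.7 and 30.2 CPM at 18 h, 35.01 and 14.1 in the 24 h controls, 24.1, 28.8 and 9.07 with hypodermal and 19.6 and 21.5 with global depletion, and its groups overlapped.

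ife-4 was unlisted in all 4 controls and in global replicate 1; it was listed at 8.18, 6.03 and 11.7 CPM in hypodermal depletion and 12.9 in global replicate 2. ife-5 was unlisted at 18 h and in 24 h control replicate 1. It was at 10.1 CPM in 24 h control replicate 2, 2.41, 2.68 and 6.48 with hypodermal and 3.02 and 3.44 with global depletion. A count of 3 stood for 15.2 and 18.0 CPM in the 18 h controls and 9.25 and 5.92 in the 24 h controls before TMM factors, so levels like these lay below what 3 counts stood for at 18 h, though not all did so in the 24 h controls. ifg-1, the eIF4G scaffold, differed by -0.27 in global and -0.22 in hypodermal depletion, with no call.

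The eIF5A pair splits into iff-2, expressed in the soma, and iff-1, known from the germline. iff-2 was at 385 and 532 CPM at 18 h, 563 and 574 in the 24 h controls, 461, 590 and 662 with hypodermal and 444 and 560 with global depletion. The hypodermal libraries overlapped the 24 h controls, with an estimate of 0.00 (SE 0.21, edgeR adjusted p = 0.999). Both global libraries lay below both 24 h controls, by -0.18 (SE 0.23, edgeR adjusted p = 0.714), which did not pass. iff-1 was unlisted at 18 h and in 24 h control replicate 2, and at 22.3 CPM in 24 h control replicate 1. It was at 17.8, 26.1 and 38.9 with hypodermal and 9.04 and 16.4 with global depletion. Every hypodermal library was above both global libraries, by 1.08 (SE 0.53, unadjusted p = 0.0498, edgeR adjusted p = 0.355), which did not pass. The summed level of the 10 germline markers was 140 to 187 CPM in hypodermal and 203 to 211 in global depletion; its part in the iff-1 values was not tested.

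No elongation factor was called at 24 h. eef-2 was at 7977 and 8843 CPM at 18 h, 11294.5 and 10785 in the 24 h controls, 10583, 10219 and 10484 with hypodermal and 10180 and 7452 with global depletion. All 5 depleted libraries lay below both 24 h controls, by -0.08 in hypodermal depletion (SE 0.19, edgeR adjusted p = 0.884) and -0.32 in global depletion (SE 0.20, edgeR adjusted p = 0.387).

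eef-1A.1, whose promoter drives TIR1 in the global strain, was at 8663 and 8220 CPM at 18 h, 10451 and 9498 in the 24 h controls, 11096, 9326 and 11256 with hypodermal and 9332 and 7283 with global depletion. eef-1A.2, on the X chromosome, was at 2253 and 3103 CPM at 18 h, 4357 and 3871 in the 24 h controls, 4664, 4614 and 5592 with hypodermal and 5109 and 4659 with global depletion. Against the 24 h controls the global estimates had opposite signs, -0.26 for eef-1A.1 (SE 0.21, edgeR adjusted p = 0.507) and 0.25 for eef-1A.2 (SE 0.21, edgeR adjusted p = 0.548), and neither passed.

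The share of eEF1A counts from eef-1A.2 does not depend on how libraries are scaled. It was 20.6% (95% Wilson interval 19.0 to 22.4) and 27.4% (25.4 to 29.5) in the 18 h controls and 29.4% (28.1 to 30.8) and 29.0% (27.9 to 30.1) in the 24 h controls. It was 29.6% (29.1 to 30.1), 33.1% (32.5 to 33.7) and 33.2% (32.4 to 34.0) in hypodermal depletion and 35.4% (34.7 to 36.1) and 39.0% (38.2 to 39.8) in global depletion. The intervals cover counting error only. The shares of the 4 groups did not overlap, from 18 h controls up to global depletion, although the interval of the lowest hypodermal share overlapped those of the 24 h controls. Exact two-sided permutation tests of the 6 group pairs gave p = 0.333 for 2 libraries against 2 and p = 0.2 for 3 against 2, the smallest these designs allow, and 0.333 after adjustment over the 6. The genes encode near-identical proteins and how shared reads were counted is not given, so the split between them is uncertain.

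**Figure D4:**
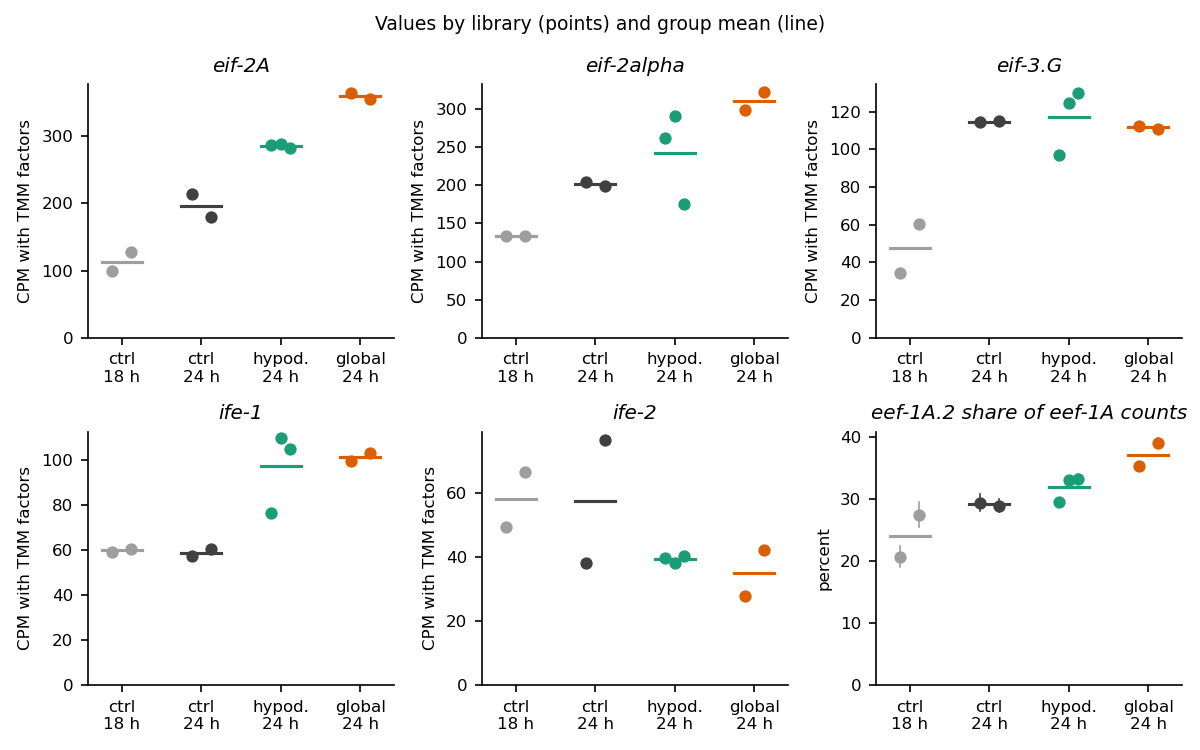
Level by library in CPM with TMM factors for eif-2A, eif-2alpha, eif-3.G, ife-1 and ife-2, and the percent of eEF1A counts from eef-1A.2 with 95% Wilson intervals; points are libraries and lines are group means. The eif-2A and eef-1A.2 panels rise from the 18 h controls to global depletion without overlap, and ife-1 is higher in all 5 depleted libraries than in the 4 controls.

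The eEF1B genes recharge eEF1A. eef-1B.1 was at 414 and 399 CPM at 18 h, 621 and 578 in the 24 h controls, 578, 885 and 726 with hypodermal and 697 and 794 with global depletion. eef-1B.2 was at 321 and 399 CPM at 18 h, 525 and 566 in the 24 h controls, 420, 588 and 415 with hypodermal and 528 and 584 with global depletion. eef-1G was at 1755 and 1869 CPM at 18 h, 2661 and 2588 in the 24 h controls, 2580, 2762 and 2799 with hypodermal and 2324 and 2287 with global depletion. None was called at 24 h. The 24 h estimates of these 3 genes ran from -0.23 to 0.32 over the 3 comparisons at that time.

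Hypodermal depletion against the 24 h controls gave no member called by edgeR, higher or lower, with 4 members at an unadjusted p below 0.05 and none called by DESeq2. Over all genes 5.05% were called, 1.66% higher and 3.39% lower. The members' median was 0.02, against 0.03 for all genes. Every hypodermal library lay above both 24 h controls for 4 members and below them for 5, where 17.9% and 16.3% of all genes did so. Under median-of-ratios scaling both shifted alike, to -0.03 and -0.01. Those at an unadjusted p below 0.05 were eif-1, eif-2A, eif-3.K and ife-1. eif-1, which guards start codon choice, was at 131 and 72.5 CPM in the 24 h controls and 62.1, 60.3 and 55.7 in hypodermal depletion. It lay lower in every hypodermal library, by -0.72 (SE 0.32, edgeR adjusted p = 0.216). The 95% intervals of the 35 members reached from 0.37 to 1.40 on either side of the estimate on the log2 scale, narrowest for eef-1G and widest for eif-2Balpha.

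The direct comparison of hypodermal with global depletion does not use the controls for its direction. No member was called by edgeR, with 1 at an unadjusted p below 0.05 (iff-1) and none called by DESeq2, while 4.42% of all genes were called, 2.99% higher and 1.43% lower in hypodermal depletion. The median was 0.07 against 0.01 for all genes, and the members' estimates ran from -0.34 for eif-2alpha to 1.08 for iff-1. With total count as the only scaling both medians shifted alike, to -0.02 for the members and -0.08 for all genes. Every hypodermal library lay above both global libraries for 5 members and below them for 3, where 16.8% and 15.6% of all genes did so. No difference in these factors between the tissues of depletion was detectable at this depth.

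In the undepleted controls, most factors had a higher level at 24 h than at 18 h. Here 30 of 35 estimates were above 0, where 50.7% of all genes were. The median was 0.53 against 0.01 over all genes. Setting members that were unlisted at 18 h at their lower bound gave a median of 0.49. Both 24 h libraries lay above both 18 h libraries for 23 members and below them for none, where 19.5% of all genes were above and 18.7% below. No single member was called by edgeR at the adjusted threshold, where 3.07% of all genes were called, 0.934% higher and 2.13% lower. DESeq2 also called none. An unadjusted p below 0.05 was found for 14 members, with no share of all genes at that threshold to compare. The members with the lowest adjusted p were eif-3.G (log2 difference 1.30, SE 0.42, edgeR adjusted p = 0.0824) and eif-3.C (0.74, SE 0.24, edgeR adjusted p = 0.0882). eif-3.C became a call without 18 h control replicate 1 (log2 difference 1.29, edgeR adjusted p = 0.0229), and 4, 3 and 12 members were called, all higher, with unlisted counts as 0, as 2 and with no filter on low counts. Of all genes, 3.86%, 3.24% and 3.28% were called with unlisted counts as 0, as 2 and with no filter. The 18 h controls were also the shallowest libraries. With every library thinned to the shallowest total, 28 members were tested and the median was 0.54, with no call. Some tissue markers moved as well. The muscle markers summed to 25091 to 27571 CPM at 18 h and 18366 to 23238 at 24 h, with a list median of -0.48. None of these 5 was called. Of the 7 intestinal markers, 1 was called: ifb-2 fell by 0.99 (edgeR adjusted p = 0.00432). The intestinal list median was -0.07. The intestinal sums overlapped, at 13110 to 15987 CPM at 18 h and 11875 to 16017 at 24 h. The part of tissue composition in the factors' values was not tested.

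By complex, all 3 eIF2 genes, all 3 eEF1B genes, both eEF1A genes and eEF2 were above 0 from 18 h to 24 h, as were 10 of 11 eIF3 genes. The eIF2 sum was 1.64-fold higher at 24 h, against 1.31-fold for the elongation factors. Of the 4 tested cap-binding genes, 2 were above 0: ifg-1 was at 0.53 and ife-2 at 0.05, while ife-1 and ife-3 were at -0.02 and -0.23, with edgeR adjusted p of 0.214 to 0.989.

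Both depletions at 24 h can also be set against the 18 h controls, an earlier time at which the worms had neither TIR1 nor IAA; time and depletion cannot be told apart there. In global depletion 8 members rose and none fell, where 14.6% of all genes were called, 5.99% higher and 8.61% lower. In hypodermal depletion 11 rose and none fell, where 13.0% were called, 5.46% higher and 7.58% lower. Every global library lay above both 18 h libraries for 19 members and below them for 2, where 25.2% and 24.7% of all genes did so. For hypodermal depletion these counts were 24 and 2, where 21.2% and 20.1% of all genes did so. The medians were 0.43 and 0.60, or 0.36 and 0.59 with unlisted members at their bound, against -0.02 and 0.03 over all genes. The comparisons share their controls, so the 8 members called in both are not independent of each other. Intestinal, muscle and pharyngeal markers moved too. Of the 7 intestinal markers, 4 fell in global depletion, with a list median of -0.91, and 2 in hypodermal depletion. The pharyngeal marker tnt-4 fell in both. Of the muscle markers, 3 of 5 fell in global and 1 of 5 in hypodermal depletion against 18 h, with summed levels of 25091 to 27571 CPM at 18 h and 16954 to 18982 in global depletion, and their part in these values was not tested.

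**Figure D5:**
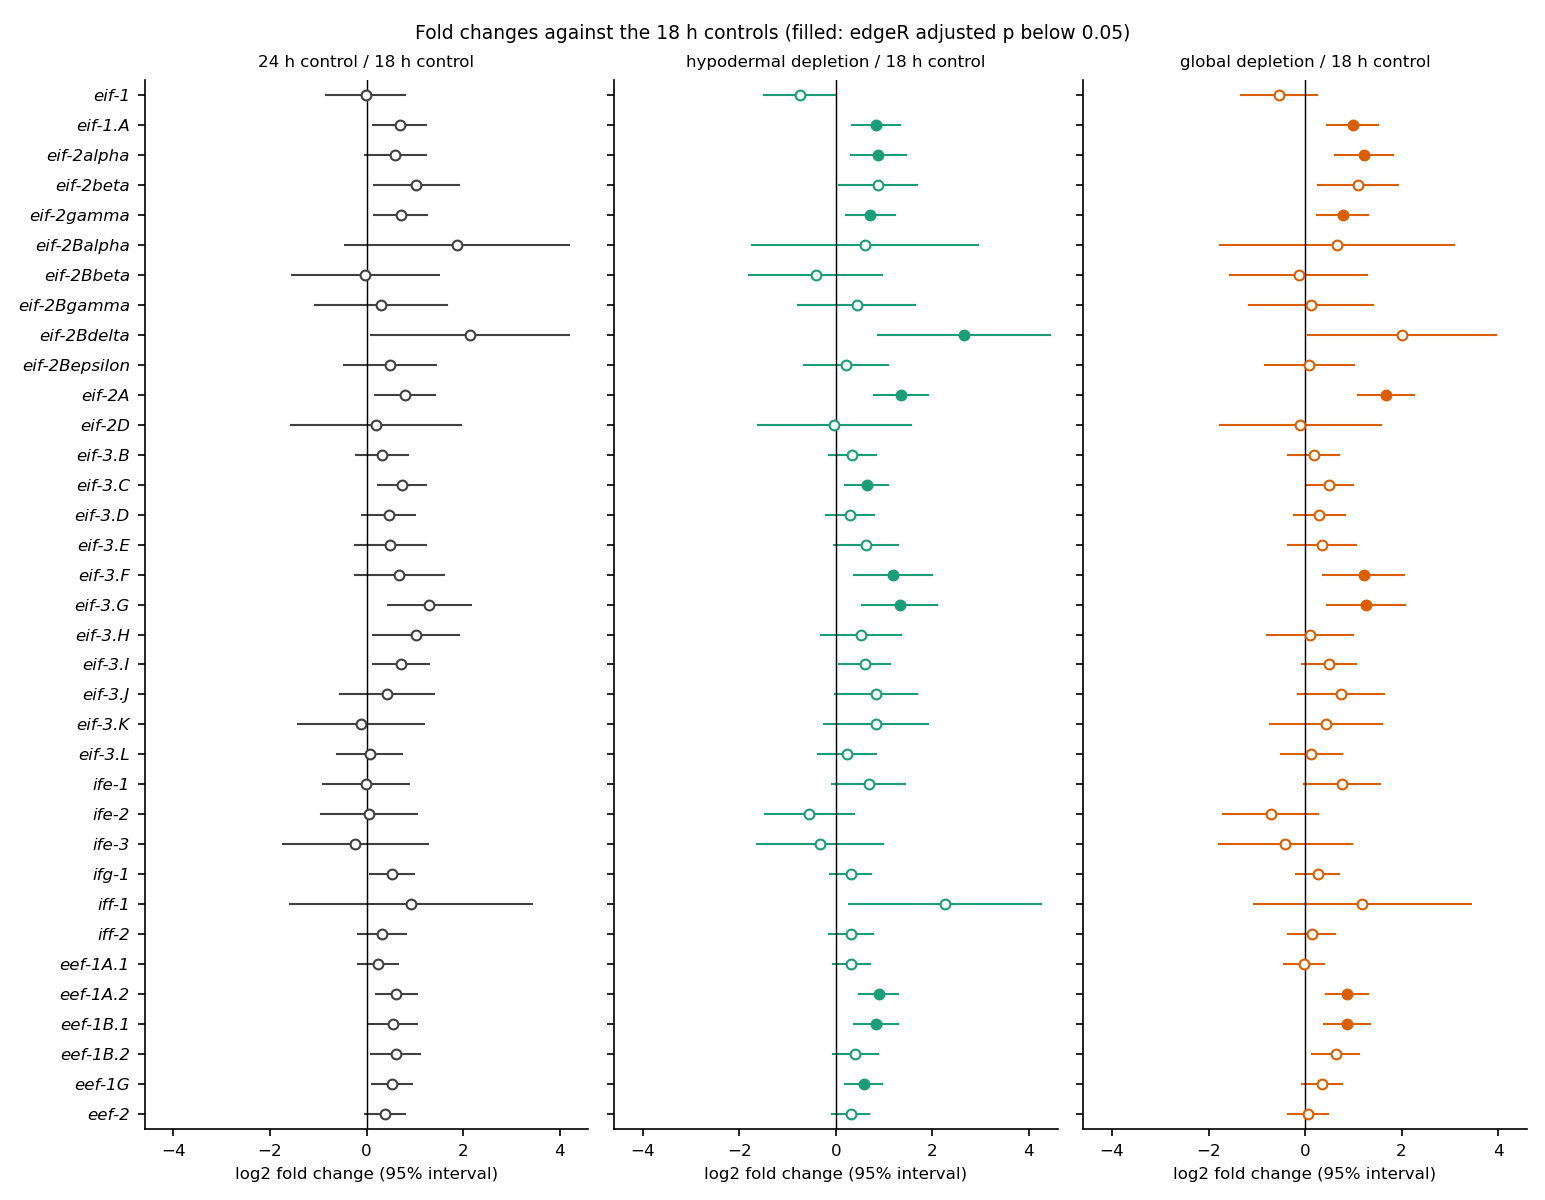
Fitted log2 fold changes of the 35 tested members against the 18 h controls, with 95% intervals; filled points have an edgeR adjusted p below 0.05. Most points of all 3 panels lie right of 0, and the fitted values of eif-2Balpha, eif-2Bdelta and iff-1, unlisted at 18 h, depend on the count entered for unlisted values.

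The members that rose against 18 h came from most steps of translation. eif-2A rose by 1.68 in global depletion (SE 0.29, edgeR adjusted p = 2.64e-05) and by 1.35 in hypodermal depletion (SE 0.28, edgeR adjusted p = 0.000478). eif-2alpha, at 133 and 133 CPM in the 18 h controls, rose by 1.22 (SE 0.30, edgeR adjusted p = 0.00284) and 0.88 (SE 0.28, edgeR adjusted p = 0.0315). eif-2gamma, the tRNA-binding subunit of eIF2, was at 192 and 182 CPM at 18 h, 315 and 298 in the 24 h controls, 336, 281 and 305 with hypodermal and 320 and 323 with global depletion, and rose by 0.78 and 0.72. eif-1.A, which helps scanning for the start codon, was at 217 and 248 CPM at 18 h, 325 and 419 in the 24 h controls, 398, 494 and 337 with hypodermal and 426 and 493 with global depletion, and rose by 0.99 and 0.83. For each of these the 24 h controls already lay above both 18 h libraries.

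Of the eIF3 genes, eif-3.F and eif-3.G rose in both comparisons and eif-3.C in the hypodermal one. eif-3.G was at 34.5 and 60.5 CPM at 18 h, 115 in each of the 24 h controls, 97.2, 125 and 130 with hypodermal and 112 and 111 with global depletion, with rises of 1.32 and 1.26 in the hypodermal and global comparisons. eif-3.F was at 59.2 and 42.3 CPM at 18 h, 108 and 62.4 in the 24 h controls, 98.6, 161 and 90.7 with hypodermal and 121 and 118.8 with global depletion. eif-3.C was at 542 and 339 CPM at 18 h, 678 and 798 in the 24 h controls, 618, 760 and 696 with hypodermal and 644 and 616 with global depletion. Against 18 h all 11 eIF3 estimates were above 0 in both depletions.

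Of the elongation factors, eef-1A.2 rose by 0.87 (SE 0.21, edgeR adjusted p = 0.00321) and 0.89 (SE 0.20, edgeR adjusted p = 0.00130) in global and hypodermal depletion, and eef-1B.1 by 0.87 and 0.84. eef-1G rose by 0.58 in hypodermal depletion and was at 0.35 in global depletion (edgeR adjusted p = 0.279). eef-1A.1 and eef-2 were at -0.02 and 0.07 in global depletion. eif-2Bdelta, a regulatory subunit of eIF2B, was unlisted at 18 h and at 38.2 and 14.1 CPM in the 24 h controls, 34.6, 32.2 and 38.9 with hypodermal and 28.6 and 15.5 with global depletion. It was at least 2.14-fold higher in hypodermal depletion than 3 counts in each 18 h library would give. Its call (edgeR adjusted p = 0.0383) is not a test of that bound, because it came from entering unlisted counts as 1. The call was lost with unlisted counts entered as 2, and under 9 of 19 alternatives in all.

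The lowest estimates against 18 h belonged to eif-1 in hypodermal depletion (-0.73, SE 0.37, edgeR adjusted p = 0.197) and ife-2 in global depletion (-0.71, SE 0.49, edgeR adjusted p = 0.360). eif-1 was at 128 and 66.5 CPM at 18 h and at 53.5 and 83.5 in global depletion, and neither gene passed.

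The number of members that rose against 18 h fell when some single libraries were left out. The share of all genes called fell in these fits too, and whether the members fell further was not tested. The number for global depletion fell without either 18 h control or either global library, each of which leaves 1 library in its group. The members' medians were 0.72 without 18 h control replicate 1 and 0.46 without 18 h control replicate 2. They were 0.50 without global replicate 1 and 0.41 without global replicate 2, against 0.43 in the main fit. In hypodermal depletion 2 of 35 members were called without hypodermal replicate 2, where 9.58% of all genes were called. The main fit called 11 of 35, where 13.0% of all genes were called. The number also fell without either 18 h control, which leaves 1 library there. The members' medians were then 0.71 without replicate 1 and 0.69 without replicate 2. The calls kept under all 20 alternatives were eif-2A in both comparisons and eif-2alpha in global depletion. eef-1A.2 lost its calls without 18 h control replicate 1 (edgeR adjusted p = 0.0841 in global and 0.0771 in hypodermal depletion) and under no other alternative. eif-2gamma and eif-3.C were the least stable: in hypodermal depletion they lost their calls under 13 and 10 of 20 alternatives, with edgeR or DESeq2 adjusted p of up to 0.191 and 0.454. The other calls were lost without at least 1 library. Their highest adjusted p over the 20 alternatives (19 for eif-2Bdelta), in global depletion, was 0.0674 for eif-1.A, 0.157 for eif-2gamma, 0.211 for eif-3.F, 0.271 for eif-3.G and 0.0691 for eef-1B.1. In hypodermal depletion it was 0.155 for eif-1.A, 0.151 for eif-2alpha, 0.215 for eif-2Bdelta, 0.214 for eif-3.F, 0.246 for eif-3.G, 0.0904 for eef-1B.1 and 0.168 for eef-1G. No call changed sign.

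Beyond the members, 45 other translation genes were listed, for other initiation proteins, termination and rescue, signalling to translation, factor modification and mitochondrial translation; 44 were in the table and 42 were tested. Against the 24 h controls, global depletion had 1 higher and 1 lower, where 8.45% of all genes were called. dohh-1, whose product completes the hypusine modification of eIF5A, rose by 1.19 (SE 0.36, edgeR adjusted p = 0.0299). atf-5, named atf-4 in the gene name table, encodes a transcription factor translated when eIF2 is phosphorylated, and fell by 1.21 (SE 0.36, edgeR adjusted p = 0.0236). Hypodermal depletion against the 24 h controls and against global depletion gave no call among the 42. Of all genes, 5.05% and 4.42% were called there.

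From 18 h to 24 h in the controls these genes had a median of 0.35, though the factor modification genes were at -0.02. Of the 42, 1 was called higher, where 3.07% of all genes were called in either direction. This gene, C52E12.1 (znf-598 in the gene name table), rose by 1.26 (SE 0.37, edgeR adjusted p = 0.0479). Against 18 h, 4 of the 42 rose and 2 fell in global depletion, where 14.6% of all genes were called. In hypodermal depletion against 18 h, where 13.0% of all genes were called, 6 of the 42 rose and none fell. Those that rose in both were ncbp-1, a subunit of the nuclear cap-binding complex (1.48 and 1.26), iffb-1, the subunit-joining factor eIF5B (0.80 and 0.76), and abcf-3 (1.09 and 1.17). The poly(A)-binding protein gene pab-1 rose by 0.79 in hypodermal depletion (SE 0.19, edgeR adjusted p = 0.00340).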

How the data were processed

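The deposited table holds raw counts of reads in the coding sequence of each gene, with nothing under 3 listed; the submitters' processing notes name DESeq2 and WBcel235. Aligner, counter and use of strand: not given in the sources used here. Of the table's library names, 1 matched no sample and was not used. CPM values carry TMM factors. Tests used edgeR 4.0.16 under R 4.3.3 (robust quasi-likelihood fit of all 9 libraries, a term per group, filterByExpr with minimum count 10 and total 15, unlisted counts entered as 1, Benjamini-Hochberg over 8026 genes; biological coefficient of variation 0.203), tested on simulated data. DESeq2 1.42.0, other scalings, filters, values for unlisted counts, a replicate block, thinning and leaving out each library were alternatives. Summing the eef-1A counts into 1 gene was chosen after seeing the data. Members and gene lists were chosen with earlier results of these data known. Every member is accounted for. Values in every library are given for called members, paralogs and the members with the largest rise and fall, plus eif-3.H and eif-3.K, chosen after their values were seen because a left-out library makes them calls. Coordinates are WBcel235. Sequences were not used here.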

Additional observations from a re-analysis of the deposited data

How the results depend on the processing

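Over the 20 alternatives of each comparison, 3 of 20 member calls were kept throughout and none reversed. Leaving out each library gave counts of called members of 0 to 2 for global depletion and 0 to 1 for hypodermal depletion against the 24 h controls, 0 to 1 for the 24 h against the 18 h controls, and 3 to 9 and 2 to 11 for global and hypodermal depletion against the 18 h controls. Where 1 library was left in a group, it was assumed to vary like the others. Entering unlisted counts as 0 gave 4 called members (controls over time), 13 (global against 18 h) and 17 (hypodermal against 18 h). Of all genes, 3.86%, 15.4% and 15.7% were called there. Entering unlisted counts as 2 gave 3 for the controls over time, where 3.24% of all genes were called. With no filter these 3 comparisons gave 12, 18 and 23, where 3.28%, 11.9% and 12.3% of all genes were called. DESeq2 gave 5 of 35 members for global and 5 of 35 for hypodermal depletion against 18 h. Of all 8026 genes, it called 1094 and 963 there, in that order. For hypodermal depletion against 18 h, median-of-ratios scaling, a fit of the compared groups by themselves and thinning to the shallowest total each gave 5. A replicate block gave 6. Of all genes, 13.1%, 12.5%, 18.4% and 10.3% were called under these settings, in that order. The cause of the lower counts was not tested. For hypodermal depletion against 18 h, the all-gene median shifted from 0.03 to -0.09 with median-of-ratios scaling and to 0.36 with unlisted counts as 0, and the members' median from 0.60 to 0.48 and 0.85. Replicate numbers are shared only as numbers, with correlations of same-numbered deviations from -0.0775 to 0.144, and the block moved no other count of member calls by over 1.5 times. Summing the eef-1A pair changed no count by over 1.5 times. Depth limits the rare members (eIF2B subunits, ife-4, ife-5, iff-1) in the controls.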
